A study of Mus musculus with 6 samples.

Results

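The cytosolic ribosomal protein genes were described in single immune cells of the mouse hippocampus. Members were the gene rows whose symbols begin with Rpl or Rps and a digit, with Rpsa, Rplp0, Rplp1 and Rplp2 added, and with pseudogene rows ("-ps") and the Rps6k kinases left out. The rule gave 87 of 32429 gene rows, 53 with Rpl or Rplp symbols (large subunit) and 34 with Rps symbols (small subunit). Of these, 77 are the core proteins of the ribosome, and 10 are copies, relatives or, for Rps19bp1, a binding partner of Rps19. The members held 1148008 of 14097425 UMIs (unique molecular identifiers, the counted RNA molecules), or 8.14%. Ribosomal proteins assemble with ribosomal RNA into the subunits that translate mRNA, and the cell makes them in matched amounts. Their mRNAs begin with a pyrimidine tract (the TOP motif), through which mTORC1 and Larp1 set their translation. They are among the most abundant mRNAs of lymphocytes and are also plentiful in microglia, the resident macrophages of the brain.

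Learned helplessness is a behavioural model in which inescapable footshock leaves some mice failing to escape later shocks. All mice were of the strain labelled BC57BL/6, and hippocampal cells were sorted as live and CD45+ for droplet sequencing with a kit that reads the 5′ ends of mRNAs. The non-shocked library came from mice given no shock. The acute non-helpless and acute helpless libraries came from mice that received 180 inescapable shocks of 0.3 mA and then had an escape test (30 trials, 24 s each). The chronic libraries came from mice retested weekly for 3 weeks, and held mice that never became helpless (chronic non-helpless), helpless mice that recovered, and helpless mice that did not recover. The sources used here do not give how many mice went into a library. Each group was 1 library, so no test between groups could be made, and every interval covers counting error only, at 95%.

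The 6 libraries held 3005 barcodes, from 121 (non-recovered) to 687 (acute helpless), with 438777 to 3260120 UMIs each. Of these, 2721 were labelled microglia by the authors. The deposited batch number was 1 for acute helpless, 2 for acute non-helpless and 3 for the chronic libraries, while the non-shocked library was split into 123 microglia of batch 2 and 429 of batch 3, which are given apart. Batches 1 and 2 also used other gene symbols than batch 3: 282 symbols with at least 30 UMIs occurred only in the former and 348 only in the latter. Batch and group cannot be told apart between acute helpless and the other libraries, nor between acute non-helpless and the chronic libraries. Only 5 barcode sequences occurred in more than 1 library, at most 1 per pair of libraries. The non-recovered library stood apart, with 99 microglia and with neutrophil markers at 2.25% of microglial UMIs, nearly all in 1 barcode that had 39.7% of its UMIs in these markers.

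The start sites of the members that the results turn on are shown first, because the pyrimidine tract is read from them. Each line gives 10 bases before and 20 bases from the RefSeq start (build GRCm38.p6, 5′ to 3′ on the gene's strand), with a run of at least 3 pyrimidines at the start in capitals. Rpl28 and Rps10 were picked because they begin with such a tract, and the others because their values stand out below.
Rpl28 (chr7:4792955-4792984, plus strand): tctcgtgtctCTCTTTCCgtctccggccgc
Rps10 (chr17:27635225-27635254, minus strand): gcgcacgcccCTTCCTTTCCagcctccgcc
Rps27 (chr3:90213629-90213658, minus strand): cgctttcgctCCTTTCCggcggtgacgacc
Rps27rt (chr9:114982720-114982749, minus strand): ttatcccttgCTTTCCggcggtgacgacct
Rps15a (chr7:118116128-118116157, minus strand): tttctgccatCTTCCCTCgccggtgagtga
Rpl13a (chr7:45128726-45128755, minus strand): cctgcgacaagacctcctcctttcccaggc
Rpl10a (chr17:28328461-28328490, plus strand): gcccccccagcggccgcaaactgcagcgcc
Rpsa (chr9:120127756-120127785, plus strand): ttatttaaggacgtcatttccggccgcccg
Rpl36al (chr12:69184048-69184077, minus strand): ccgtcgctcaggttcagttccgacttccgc
Rpl7l1 (chr17:46782637-46782666, minus strand): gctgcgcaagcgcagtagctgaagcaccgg

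Of the 66 members in the RefSeq promoter table, 14 (21.2%) had a C followed by 4 pyrimidines at the annotated start, against 3.01% of 27025 genes. The letters CTTTCC, searched from 20 bases before to 30 bases after the start, occurred for 13 members (19.7%) and for 2.83% of all genes. The reverse complement GGAAAG occurred for 1.52% of members and 2.69% of all genes. CTTTCC can overlap the tract at the start, as it does in Rpl28, Rps27 and Rps27rt. A window without these letters says nothing of how the mRNA is translated, since an annotated start can lie some bases from the one in use.

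Rps29, a small subunit protein with a zinc finger, had the highest count in microglia. Its level was 1290 and 1854 CPM (the count scaled to the group's total UMIs) in non-shocked batches 2 and 3, 3534 in acute non-helpless, 2850 in acute helpless, 2462 in chronic non-helpless, 2425 in recovered and 1412 in non-recovered microglia. The next were Rplp1, a stalk protein that recruits elongation factors, at 1831 CPM over all microglia, Rps24 at 1310, Rpl41 at 1273 and Rpl13 at 1190. At the other end, the relatives Rpl10l and Rpl3l had 0 UMIs in all 3005 cells. Rpl39l had 24 UMIs in microglia, Rps19bp1 was at 40.2 CPM and Rpl6l at 71.9 CPM. In all, 83 members reached 50 CPM. These are UMI counts not divided by transcript length, so the order is one of counts.

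The members kept close proportions to one another. As a share of all ribosomal protein UMIs, Rps16 lay between 1.31% and 1.42% in the 7 groups of microglia, and Rpl11 between 1.28% and 1.39%. The coefficient of variation of that share over the 7 groups had a median of 7.61% over the 83 members, was under 10% for 54 of them and over 20% for 9. The 9 were Rpl6l, Rps27rt, Rpl13a, Rpl7l1, Rpl22l1, Rpl10a, Rpl7a, Rpl5 and Rps27l. Each group weighs equally in this measure, and some shares in non-shocked batch 2 rest on few counts. There Rps27l had 5 UMIs, Rpl7l1 had 19, and Rpl22l1 and Rpl5 had 20 each. Rpl7a and Rpl10a had more, with 86 and 99. The groups also differ in their share of barcodes low in these mRNAs, given below, and the part of this was not tested. Small subunit genes took 41.8% to 43.6% of the ribosomal protein UMIs in every group.

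The summed ribosomal protein share of microglial UMIs was highest in the acute libraries and lowest in the non-recovered and the batch 2 non-shocked microglia. The acute and the chronic libraries differ in batch, so batch and group cannot be told apart between them. It was 7.44% (7.41% to 7.48%) in acute non-helpless and 6.57% (6.54% to 6.60%) in acute helpless microglia. The chronic libraries had 5.70% (5.67% to 5.73%) in non-helpless, 5.95% (5.92% to 5.99%) in recovered and 3.49% (3.43% to 3.56%) in non-recovered microglia. Non-shocked microglia had 3.35% (3.27% to 3.44%) in batch 2 and 4.54% (4.51% to 4.57%) in batch 3. The last 2 values are 1 group, and batch 2 was 0.739 times batch 3 (0.720 to 0.759), so a gap of this size occurred with no difference in treatment. Within batch 3, non-recovered microglia had 0.586 times the share of recovered microglia (0.575 to 0.598). Chronic non-helpless microglia had 1.26 times the share of non-shocked ones (1.25 to 1.27), and recovered microglia 1.04 times that of chronic non-helpless ones (1.04 to 1.05).

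**Figure D1:**
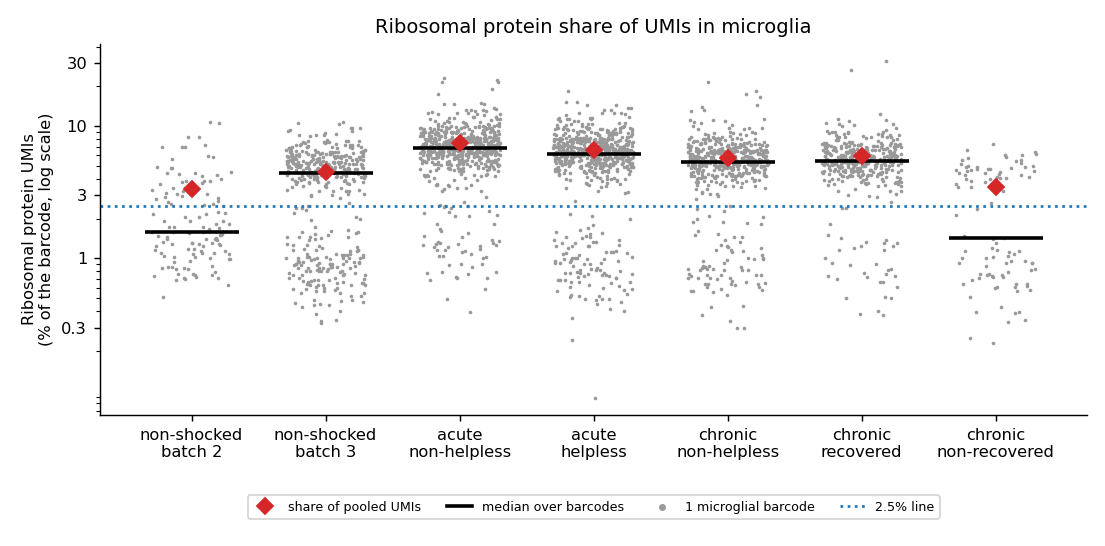
Ribosomal protein UMIs as a percent of each microglial barcode's UMIs (log scale), by library, with the non-shocked library split by batch. Grey points are barcodes, black lines medians, red diamonds shares of pooled UMIs and the dotted line 2.5%. 1 barcode of non-shocked batch 2 at 0 is not drawn. Barcodes form an upper and a lower cloud in the groups other than non-shocked batch 2, where they spread without a gap, and barcodes under the line make up more than 50% of the barcodes in non-shocked batch 2 and in non-recovered microglia.

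Barcodes low in these mRNAs were unevenly spread over the libraries. Microglial barcodes under 2.5% ribosomal protein UMIs, called ribosome-poor here for their mRNA only, numbered 546 of 2721, and 57 microglia lay between 2% and 3%. They made up 65.0% (55.9% to 73.4%) of non-shocked batch 2 and 34.3% (29.8% to 39.0%) of non-shocked batch 3 microglia. The share was 9.31% (7.06% to 12.01%) in acute non-helpless and 15.9% (13.1% to 19.0%) in acute helpless microglia. In the chronic libraries it was 15.6% (12.6% to 19.1%) in non-helpless, 9.41% (6.64% to 12.8%) in recovered and 53.5% (43.2% to 63.6%) in non-recovered microglia. With every barcode thinned to 1000 UMIs, and 121 shallower microglia left out, the shares ran from 8.77% in recovered to 62.5% in non-shocked batch 2. Of those left out, 67 were of non-shocked batch 2, where 56 of 123 microglia remained. Without the ribosome-poor barcodes the share of UMIs was 5.53% and 5.48% in non-shocked batches 2 and 3. It was 7.69% and 6.92% in acute non-helpless and acute helpless microglia. It was 6.09% in chronic non-helpless, 6.17% in recovered and 4.74% in non-recovered microglia. Leaving out barcodes by the share that is compared moves these values up by construction. The medians over the remaining barcodes were 3.88% and 5.25% in non-shocked batches 2 and 3, 7.12% in acute non-helpless, 6.51% in acute helpless, 5.69% in chronic non-helpless, 5.64% in recovered and 4.66% in non-recovered microglia. The acute libraries, which differ in batch from the chronic ones, were highest by both measures, while the non-shocked batches were close in pooled UMIs only.

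The ribosome-poor barcodes differed from the others in depth, in mitochondrially encoded RNA and in Malat1, a long non-coding RNA kept in the nucleus. Their median was 787 to 2246 UMIs over the 7 groups, against 1287 to 4801 in the other microglia. Malat1 took a median of 3.18% to 4.74% of their UMIs, against 0.817% to 2.27% in the others. The median share of mitochondrially encoded UMIs was 1.26% to 2.79% in the poor and 0.683% to 1.34% in the other barcodes. In each of the 7 groups the ribosome-poor barcodes were the lower in UMIs and the higher in Malat1 and in mitochondrial share. Microglial markers (P2ry12, Tmem119 and others) held 2.70% to 4.46% of UMIs in the poor and 3.30% to 4.91% in the other barcodes, and T cell markers at most 0.00418% in either. The part of depth and RNA quality in the library differences was not tested.

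The deposited microglial clusters separated along the same line by their medians over barcodes, and less so by pooled shares. In cluster 1 the pooled share was 5.41% in non-shocked batch 3, 7.06% in acute non-helpless, 6.25% in acute helpless, 5.20% in chronic non-helpless and 4.72% in non-recovered microglia. Within this cluster chronic non-helpless microglia were below the non-shocked ones, the opposite of the order over all microglia. Cluster 1 held 95 of the 499 chronic non-helpless and 244 of the 429 non-shocked batch 3 microglia. Clusters 2 and 5 held 228 and 96 chronic non-helpless microglia and none of non-shocked batch 3. Cluster 2 had 7.39% in acute non-helpless and 7.95% in acute helpless microglia, and 6.00% and 5.98% in chronic non-helpless and recovered ones. Cluster 5 had the highest share where it occurred, at 9.83% in acute non-helpless and 7.90% in chronic non-helpless microglia. Clusters 3 and 6 held most ribosome-poor barcodes: 348 of 395 barcodes in cluster 3 and 170 of 235 in cluster 6 were under 2.5%. These clusters had median UMIs of 1884 and 1467, against 4827 in cluster 1. Cluster 4 (39 barcodes, 38 of them non-shocked batch 3) was shallower still, at a median of 977 UMIs, and had a median share of 5.21% with 2 barcodes under 2.5%. Recovered and non-shocked batch 2 microglia had no cluster 1 value. Against cluster 1, the members had a median log2 ratio of 0.08, 0.33 and 0.18 in cluster 2 of acute non-helpless, acute helpless and chronic non-helpless microglia, with 0 of 83, 1 of 84 (Rps19bp1) and 0 of 81 departing, where 3.73%, 4.18% and 4.3% of all genes departed from their own median. Cluster 5 had 0.44 and 0.58 in acute and chronic non-helpless microglia, with 0 of 83 and 1 of 81 (Rpl7l1) departing (10.8% and 13.4% of all genes). These cluster pairs were chosen after the values were seen. The clusters may have been built on these genes, so cluster values are a description.

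**Figure D2:**
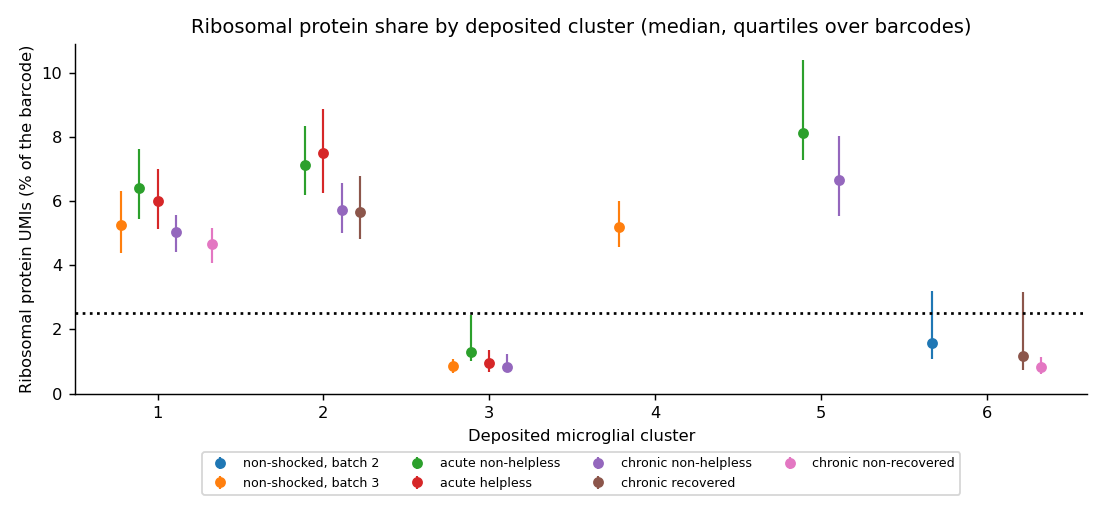
Median ribosomal protein share per barcode (points) with quartiles (lines) for each deposited microglial cluster and library with at least 15 barcodes. Clusters 1, 2, 4 and 5 lie above the dotted line at 2.5%, and the medians of clusters 3 and 6 lie between 0.83% and 1.58%.

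T cells gave 2.35 to 5.11 times the ribosomal protein share of microglia from the same library. The share in T cells was 14.9% (19 barcodes) in non-shocked, 22.8% (30) in acute helpless, 13.9% (25) in chronic non-helpless, 14.002% (63) in recovered and 17.8% (15) in non-recovered libraries. Microglia of the same libraries were at 4.43%, 6.57%, 5.70%, 5.95% and 3.49%, so T cells were the higher in 5 of 5. NK cells of the recovered library (16 barcodes) had 15.7%. B cells had the highest share over all libraries pooled, 25.3% in 17 barcodes. Pooled in the same way, macrophages had 16.8% (25 barcodes), NK cells 15.8% (39), T cells 15.6% (161), monocytes 13.2% (42) and microglia 6.03%. The higher share was thus not particular to lymphocytes. No single library held 15 B cells, macrophages or monocytes. At least 0.5% of UMIs lay in microglial markers in 27 of the 42 monocyte and 9 of the 25 macrophage barcodes. Many T cell barcodes carried microglial RNA: 118 of 161 had at least 0.5% of UMIs in microglial markers. In the barcodes under that level (5 to 14 per library) the T cell share was higher still, at 20.4%, 37.2%, 26.6%, 17.8% and 21.7% in the same order.

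Between libraries the members moved nearly as a block. A member was called departing when its ratio lay at least 1.5-fold from the median ratio of the members and its own interval left that median out. The intervals are for single genes and are not adjusted for the number of members. Between non-recovered and recovered microglia, 81 members could be measured, with a median log2 ratio of -0.78 (quartiles -0.88 and -0.66), against -0.13 over all 3060 genes. 67 of the 81 were at least 1.5-fold lower, where 16.5% of all genes were. 1 member departed, Rpl13a, where 26.3% of all genes departed from their own median. Recovered against chronic non-helpless microglia had a median of 0.07, with 0 of 81 at least 1.5-fold higher (2.84% of all genes) and 0 of 81 departing (3.92% of all genes). Chronic non-helpless against non-shocked batch 3 had 0.34, with 1 of 81 at least 1.5-fold higher (2.11%) and 0 of 81 departing (14% of all genes). Non-recovered against non-shocked batch 3 had -0.38. 9 of 81 were at least 1.5-fold lower, near the 9.29% of all genes, and 1 departed (13.9%), again Rpl13a. A pair added after the values were seen, non-recovered against chronic non-helpless, had -0.70, with 63 of 81 at least 1.5-fold lower (14.3%) and 2 departing (21.4%), Rpl13a upward by 0.63 and Rpl5 downward by -0.71. The other added pair, recovered against non-shocked batch 3, had 0.39, with 1 of 81 at least 1.5-fold higher (2.29%) and 0 departing (12.3%). Over all genes, the medians of the pairs after the first lay between -0.13 and 0.05. These comparisons share libraries and are not independent of each other.

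Acute helpless against acute non-helpless microglia, which also differ in batch, had a median of -0.17, against -0.04 over all genes. 1 of 83 was at least 1.5-fold lower (6.19% of all genes) and 1 departed (14.2%), Rps27rt in both counts. Acute non-helpless against non-shocked batch 2 had 1.21, against 0.41 over all genes. 76 of 82 members were at least 1.5-fold higher (40% of all genes) and 9 departed (31.1%). Among these, Rpl7l1, Rpl10a, Rpl7a, Rpl22l1, Rpl18 and Rpl3 lagged the other members, and Rps12 and Rpl27 ran ahead. That non-shocked group has only 174450 UMIs, and without ribosome-poor barcodes 4 members departed: Rpl7a, Rps27, Rpl4 and Rpl27. Non-shocked batch 2 against batch 3, the same treatment, had -0.49, against -0.37 over all genes. 29 of 80 were at least 1.5-fold lower, near the 34.5% of all genes. 4 departed (23.5%): Rps27rt and Rpl13a higher, Rps12 and Rpl27 lower.

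**Figure D3:**
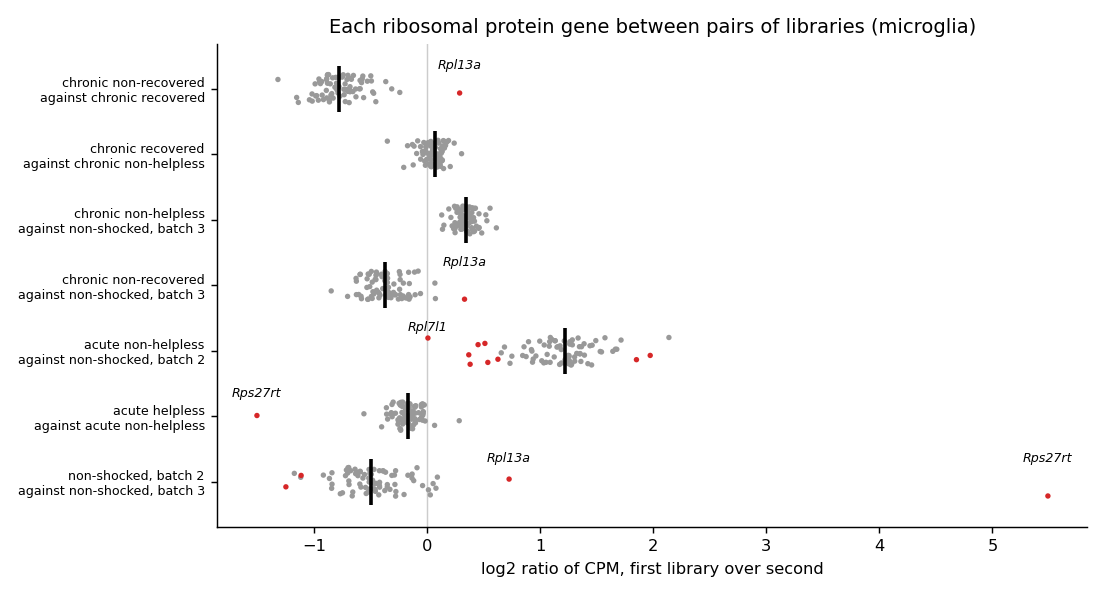
log2 ratio of CPM of each measured member in 7 pairs of libraries (microglia). Grey points are members, red points departing members and black lines the members' median. Members cluster tightly in most pairs, and Rpl13a and Rps27rt lie apart where they are named.

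Rpl13a, a large subunit protein also known from interferon-induced translational silencing, departed in non-recovered microglia against each of the 3 other groups of batch 3. It took 0.658% of ribosomal protein UMIs in non-shocked batch 3, 0.689% in chronic non-helpless, 0.517% in recovered and 1.07% (0.887% to 1.29%) in non-recovered microglia. In the other batches it took 1.47% in non-shocked batch 2, 1.11% in acute non-helpless and 1.07% in acute helpless microglia. Non-recovered microglia therefore lay with batches 1 and 2 and above the other batch 3 libraries. The UMIs were spread over 47 of 99 non-recovered barcodes, with at most 6 in any one. Its level was 375 CPM in non-recovered and 308 CPM in recovered microglia, a log2 ratio of 0.29 (-0.02 to 0.58), while the members' median was -0.78. The share was 1.14% without the barcode that lacked microglial markers and 1.03% without ribosome-poor barcodes.

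Rps27rt and Rpl6l differed between batches far more than any other member. Rps27rt is a retrocopy of Rps27 on chromosome 9 (114982366-114982739, minus strand, vM21 annotation), and Rps27 itself lies on chromosome 3 (90212522-90213651). Rps27rt was at 344 CPM in non-shocked batch 2, 820 in acute non-helpless and 289 in acute helpless microglia. In batch 3 it was at 7.65 CPM in non-shocked, 7.98 in chronic non-helpless, 5.21 in recovered and 19.7 in non-recovered microglia. The groups of batches 1 and 2 do not overlap those of batch 3. Over their 252 coding bases the 2 genes have 0 mismatches, whereas Rps27l, a separate relative, has 60. The first 60 coding bases show this, with bases that differ from Rps27 in capitals.
Rps27: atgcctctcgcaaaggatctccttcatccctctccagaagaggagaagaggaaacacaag
Rps27rt: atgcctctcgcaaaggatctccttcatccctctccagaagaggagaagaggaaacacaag
Rps27l: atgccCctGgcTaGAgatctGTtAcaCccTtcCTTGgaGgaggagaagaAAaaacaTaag

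Reads of Rps27 and Rps27rt can therefore be split by how they were counted, and their separate levels are uncertain. Added together they took 2.26%, 2.92% and 2.09% of ribosomal protein UMIs in non-shocked batch 2, acute non-helpless and acute helpless microglia, and 1.60% to 1.71% in the 4 groups of batch 3. Rpl6l, annotated as a processed pseudogene with 11 mismatches to Rpl6 over 871 bases, had 26, 312 and 454 UMIs in the same 3 groups and is listed at 0 in batch 3. The deposited tables list the same symbols for each library, so a 0 there can also be a symbol that the counting of batch 3 did not use. The 17 rows named as pseudogenes, which are no members, showed the same split. They had 6.22, 4.63 and 3.04 UMIs per 100 ribosomal protein UMIs in non-shocked batch 2, acute non-helpless and acute helpless microglia, 0.0817 to 0.0872 in 3 groups of batch 3 and 0.254 in non-recovered microglia. The part of annotation or batch in these values was not tested.

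**Figure D4:**
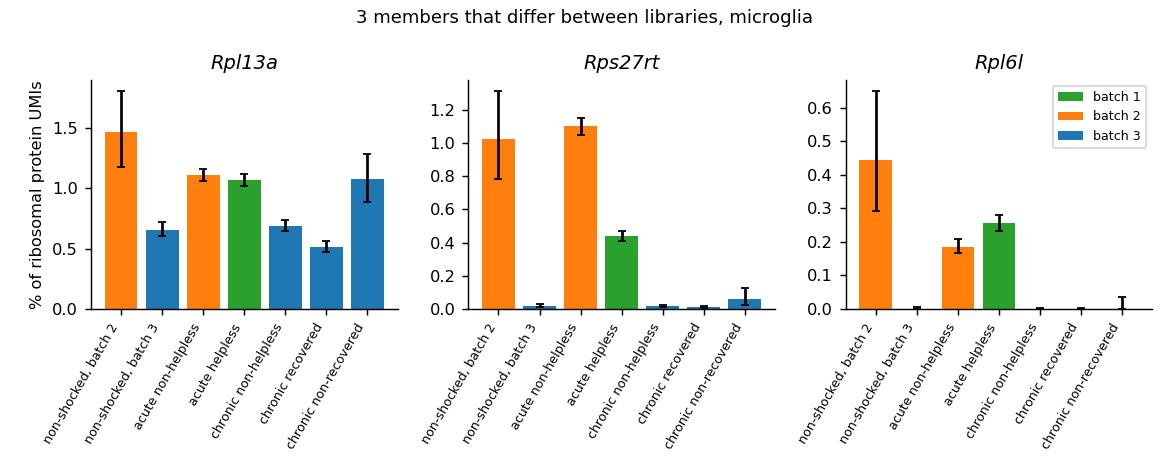
Share of ribosomal protein UMIs taken by Rpl13a, Rps27rt and Rpl6l in microglia of each group. Bars are shares of pooled UMIs with exact 95% intervals (counting error only), coloured by deposited batch. Rps27rt is near 0 in batch 3, Rpl6l is listed at 0 there, and Rpl13a in non-recovered microglia reaches 1.07%.

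The members were higher in T cells nearly as a block, and a few departed from the rest. Of the measured members, 80 of 81 in the non-shocked, 81 of 83 in the acute helpless, 78 of 81 in the chronic non-helpless, 77 of 81 in the recovered and 78 of 78 in the non-recovered library were at least 1.5-fold higher in T cells, where 10.6%, 12.5%, 10.6%, 12.7% and 15.4% of all genes were. Departing members numbered 13 of 81 in the non-shocked, 15 of 83 in the acute helpless, 5 of 81 in the chronic non-helpless, 6 of 81 in the recovered and 14 of 78 in the non-recovered library, where 21.8%, 31.6%, 21.5%, 23.1% and 33.2% of all genes departed. In each library that was a smaller share than of all genes. Non-shocked values here pool both batches. Rpsa, a small subunit protein that also serves as a laminin receptor, departed upward in 5 of 5 libraries. It took 1.95%, 1.93%, 1.69%, 1.81% and 2.00% of ribosomal protein UMIs in T cells of these libraries, and 1.11%, 1.07%, 1.02%, 1.11% and 1.13% in their microglia, with no overlap. Rps15a, of the small subunit, departed upward in 4 of 5, by 0.62 to 0.82 on the log2 scale, and lay at 0.55 in the non-recovered library. Rps27rt departed upward by 0.60 in the acute helpless library. In the non-shocked library its value cannot be told apart from the difference between the pooled batches.

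Rpl36al, a copy of Rpl36a, departed downward in T cells of 5 of 5 libraries, by -0.73 to -0.65 on the log2 scale. Rpl10, which joins the large subunit late in its assembly, departed downward in 4 of 5 (-0.89 to -0.64) and lay at -0.50 in the chronic non-helpless library. Rpl7l1, a relative of Rpl7, did so in 4 of the 4 libraries where it was measured (-2.02 to -1.41), and Rps27l in 3 of 3 (-1.39 to -1.03). Rpl7l1 had 73.4 to 104 CPM in T cells and 91.8 to 118 CPM in microglia of those libraries, so its count stayed at a similar level where the other members were higher. In T cell barcodes under 0.5% microglial markers Rpsa departed in 5 of 5 libraries (0.76 to 1.10) and Rpl10 in 4 of 5, with 5 to 14 barcodes a library. Rpl36al lay at -1.90, -0.77, -0.64, -0.96 and -0.49 there, and only the second, acute helpless, was called at these counts. In NK cells of the recovered library Rpsa departed upward (0.67) and Rps29 downward (-0.64), 2 of 79 members (27.3% of all genes).

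**Figure D5:**
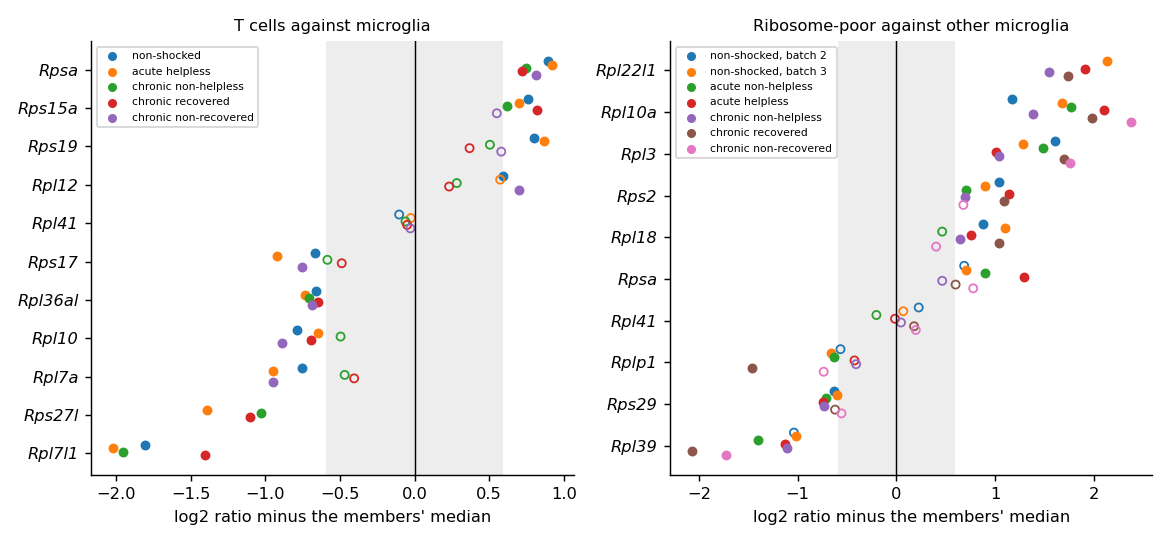
Departure of named members (log2 ratio minus the members' median) in T cells against microglia (left) and in ribosome-poor against other microglia (right), 1 point per library. Filled points are called departing, and grey shading marks less than 1.5-fold. Rpsa lies to the right in all 5 libraries on the left panel, and Rpl10a and Rpl3 in all 7 groups on the right panel. Rpl41 is drawn as a member near the median.

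The ribosome-poor microglia were chosen by the members' sum, so a lower level of each member follows from the choice, and only the mix is described. This comparison was added after the values were seen. Rpl10a and Rpl3, both of the large subunit, were less reduced than the rest in 7 of 7 groups. Rpl10a took 2.65% to 5.28% of ribosomal protein UMIs in the poor barcodes and 0.908% to 1.42% in the others, without overlap. Rpl3 took 1.99% to 3.96% and 0.950% to 1.199%. Rps2 departed upward in 6 of 7 groups, Rpl18 in 5 of 7 and Rpl22l1 in 4 of the 4 where it was measured. Rpl39, one of the smallest ribosomal proteins, was reduced most: it departed downward in 6 of 7 groups (-2.07 to -1.01), at 0.278% to 0.8005% of ribosomal protein UMIs against 1.63% to 1.76%. Rps29 departed downward in 5 of 7. Departing members numbered 10 of 66, 23 of 81, 16 of 82, 20 of 83, 17 of 81, 11 of 82 and 10 of 78 in the order of the groups used for Rps29 above, where 52.6%, 55.6%, 25.2%, 45.6%, 42.4%, 20.8% and 55.6% of all genes departed from their own median.

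Over the 65 members measured in all 7 groups, the median departure in ribosome-poor barcodes was higher for members with longer coding sequences (Pearson 0.50, Spearman 0.55). With transcript length it was 0.30 and 0.35, and with gene length 0.06 and 0.07. The same 3 lengths in the T cell comparison gave Pearson values of 0.05, -0.05 and 0.19 for transcript, coding and gene length over 78 members. These 6 relations are across genes that share the same libraries and are given as a description.

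Other genes of the translation machinery had list medians from -0.70 to -0.30 in non-recovered against recovered microglia, nearer 0 than that of the members. The median over all genes was -0.13. Genes are counted below as lower or higher when at least 1.5-fold apart. Between non-recovered and recovered microglia, 9 of 18 measured mRNAs with a known TOP motif outside the members were at least 1.5-fold lower and 0 higher, with a median log2 ratio of -0.50. Eef1a1, the factor that brings aminoacyl-tRNA to the ribosome, was at 1918 and 3163 CPM, 1.65-fold lower in non-recovered microglia (1.51 to 1.80). Fau, whose product is processed into a small subunit protein, was 1.78-fold lower (1.59 to 2.00). Of 11 ribosome biogenesis genes 8 were lower, among them the nucleolar chaperone Npm1 (1.80-fold, 1.30 to 2.56) and the rRNA methyltransferase Fbl (2.12-fold, 1.27 to 3.79), each with 40 UMIs or fewer in non-recovered microglia. Of 25 mitochondrial ribosomal proteins 9 were lower, of 24 initiation factors 5 lower and 1 higher, and of 12 mitochondrially encoded genes 0 were lower and 1 higher. Over all genes 16.5% were lower and 14.9% higher, so the count of initiation factors is near the background. Of 6 regulators around mTORC1, 3 were higher: Rptor, a subunit of the complex (2.31-fold, 1.72 to 3.07), its inhibitor Ddit4 (1.77-fold, 1.37 to 2.27) and Rps6ka1 (1.72-fold, 1.44 to 2.05). Malat1 was 2.00-fold higher (1.94 to 2.06) in the same comparison, and its part was not tested.

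In T cells against microglia, the TOP mRNAs outside the members were at least 1.5-fold higher for 17 of 18 in non-shocked, 18 of 18 in acute helpless, 15 of 18 in chronic non-helpless, 15 of 19 in recovered and 15 of 15 in non-recovered libraries, beside the same background as for the members. Tpt1 was at 2631 to 4160 CPM in T cells and 704 to 1244 CPM in microglia, with no overlap. Initiation factors had median log2 ratios from 0.05 to 0.29, where the median of all genes lay between -0.83 and -0.15. Mitochondrial ribosomal proteins had medians from -1.27 (2 measured genes, non-recovered) to 0.36 (43 measured genes, recovered).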

How the data were processed

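The deposited values used were raw UMI counts per gene and barcode in the 6 libraries, and the authors' deposited cell metadata (cell type, cluster and batch labels, per the file headers). The tools named per the submitters' processing notes are Seurat 2.3.4 and Cell Ranger 2.2.0, with build mm10. How barcodes were filtered, clustered and typed, and what a batch was, was not given in the sources used here. UMI sums equalled the deposited totals in all 3005 barcodes.

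Counts were summed per library and cell type (at least 15 barcodes) and scaled to CPM. Shares have exact Clopper-Pearson intervals and ratios conditional exact ones, covering counting error only. Counts under 3 were set to 3 in log2 ratios. A gene counted as measured when its higher group reached 50 CPM with 30 UMIs. Named members were those departing, the 5 highest and 5 lowest, those listed in only some libraries, and copies with their partners. Listed genes were named if at least 1.5-fold apart. Some genes that meet these rules are not reported here. The members and lists were chosen with earlier results of these data known. Comparisons of ribosome-poor barcodes, clusters and NK cells were added after values were seen, as were the start sites shown. Gnb2l1 and Rack1 were summed. The rule for departing members was tested on simulated counts for interval coverage, bias and direction. These counts were drawn with counting error only, as the intervals assume, so their coverage does not speak to differences between barcodes. Earlier pass marks on false calls and on the share of changed genes found were not met and were replaced, so calls in the shallow non-shocked batch 2 and non-recovered microglia, present or absent, are less certain. Scrublet in scanpy 1.11.5 marked 56 barcodes as doublets, which were kept. Positions and coding sequences came from GENCODE vM21, start sites from RefSeq, and alignments used Biopython 1.88.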

Additional observations from a re-analysis of the deposited data

How the results depend on the processing

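No paired analysis was possible because each group is 1 library. Values of the ribosomal protein share of microglial UMIs below are in the order non-shocked batch 2, non-shocked batch 3, acute non-helpless and acute helpless, then chronic non-helpless, recovered and non-recovered. With each barcode weighted equally they were 2.44%, 3.92%, 6.86%, 5.94%, 5.26%, 5.56% and 2.66%. Thinned to 1000 UMIs, which left 56 of 123 microglia in non-shocked batch 2, they were 2.74%, 3.91%, 6.85%, 5.99%, 5.30%, 5.58% and 2.83%. Without ribosome-poor microglia they were 5.53%, 5.48%, 7.69%, 6.92%, 6.09%, 6.17% and 4.74%; this setting removes barcodes by the share itself, so it moves the values up by construction. Totals without mitochondrial genes gave 4.59%, 7.55%, 6.66%, 5.77% and 6.02% in the groups from the second to the sixth. At least 1000 UMIs gave 3.59% in non-shocked batch 2, and removed doublets gave 4.58% in non-shocked batch 3 and 6.00% in recovered microglia. The next settings were added after seeing the data. Pseudogene rows added gave 3.56%, 7.79% and 6.77% in non-shocked batch 2, acute non-helpless and acute helpless. Barcodes with at least 0.5% microglial markers gave 7.39%, 6.53%, 5.65% and 5.81% in the groups from the third to the sixth. Cluster 1 alone gave 5.41%, 7.06%, 6.25%, 5.20% and 4.72%, with no value for non-shocked batch 2 and recovered. Cuts at 2% and 3% left every share of ribosome-poor microglia within its interval.

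T cell shares in non-shocked, acute helpless, chronic non-helpless, recovered and non-recovered libraries were 13.9%, 26.5%, 15.2%, 14.5% and 16.5% with barcodes weighted equally, and 20.4%, 37.2%, 26.6%, 17.8% and 21.7% without barcodes rich in microglial markers. That setting raised departing members from 5 to 10 in chronic non-helpless and from 6 to 11 in recovered libraries. Between libraries, equal weighting, which has no interval, gave 3 departing members for non-recovered against recovered, 2 for non-recovered against non-shocked batch 3, 16 for acute non-helpless against non-shocked batch 2 and 13 between the non-shocked batches. No floor on low levels gave 2 for the first and 3 for non-recovered against non-shocked batch 3. Leaving out ribosome-poor microglia gave 2 for the first and 4 for acute non-helpless against non-shocked batch 2. Adding Rps27rt to Rps27 and Rpl6l to Rpl6 gave 0 for acute helpless against acute non-helpless. Rpl13a departed in non-recovered against recovered microglia under each of these settings, while cluster 1 alone gives no value because recovered microglia have none. The departure is centred on the members, so another size factor acts only through the floor.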
